A study of Mus musculus with 12 samples.

Results

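Cirbp and Rbm3 encode the cold-inducible RNA-binding proteins, and they are 2 of the 23163 gene symbols in a table of RNA sequencing counts from mouse fat. Both rows were taken by symbol, in all 12 libraries. The 4 groups, of 3 libraries each, are brown adipose tissue (BAT) in the cold (4 °C), BAT at thermoneutrality (30 °C), subcutaneous white fat (sWAT) in the cold and sWAT at thermoneutrality. All mice were male C57Bl/6 wild-type animals aged 8 to 12 weeks, held at their temperature for 72 hours, with 10 mice at each temperature. No source says whether a library holds 1 animal or a pool, and none ties a number in BAT to an animal in sWAT, so p-values measure only the spread between these libraries.

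CIRBP and RBM3 are small relatives with an RNA recognition motif at the amino end and a tail rich in glycine and arginine. In cultured mammalian cells both transcripts rise when the medium is cooled by a few degrees, while heat shock genes rise on warming. The proteins bind other transcripts and affect their stability, choice of polyadenylation site and translation. BAT makes heat in the cold, and sWAT is a lipid store that can take up heat production.

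Cirbp (ENSMUSG00000045193.13) lies on the plus strand of mm10 chromosome 10 at 80165985 to 80172786. GENCODE M21 gives it 7 transcripts, of which 2 are coding, 1 is marked for nonsense-mediated decay and 4 retain an intron. Rbm3 (ENSMUSG00000031167.16) lies on the minus strand of chromosome X at 8138975 to 8145880. It has 11 transcripts, of which 6 are coding, 2 are marked for nonsense-mediated decay, 2 retain an intron and 1 is a processed transcript. Counts per gene cannot tell these transcripts apart. The antisense gene Rbm3os overlaps the 5′ end of Rbm3 by 452 nt, and since no source gives a strand setting, reads in that stretch are uncertain. Rbm3os had 2 to 27 counts a library, against 831 to 12018 for Rbm3. A processed pseudogene, Rbm3-ps on chromosome 1, has no row in the table. No gene overlaps Cirbp, and the gene 1600002K03Rik lies 157 nt from it.

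RefSeq promoter sequence on GRCm38.p6 was found for Cirbp, at 2 start sites, and is shown because a mild cold element has been reported in this region of the mouse gene. Each stretch runs from 250 nt before a start to 50 nt after it, on the plus strand. The first is chr10:80167589-80167888 and the second chr10:80167921-80168220. Capitals mark matches on either strand to 5 motifs: GGGCGG (the GC box bound by Sp1), TCCCCGCC (reported as a mild cold element), GAANNTTC (the core of a heat shock element), TGACGTCA (a cyclic AMP element) and CCAAT.
Cirbp start 1: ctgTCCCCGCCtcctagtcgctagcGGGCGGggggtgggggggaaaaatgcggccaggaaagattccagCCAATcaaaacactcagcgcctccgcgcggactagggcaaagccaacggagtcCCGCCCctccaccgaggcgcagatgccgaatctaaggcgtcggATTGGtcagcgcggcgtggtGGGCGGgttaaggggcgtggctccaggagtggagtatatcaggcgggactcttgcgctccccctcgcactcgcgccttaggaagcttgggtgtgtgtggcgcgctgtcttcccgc
Cirbp start 2: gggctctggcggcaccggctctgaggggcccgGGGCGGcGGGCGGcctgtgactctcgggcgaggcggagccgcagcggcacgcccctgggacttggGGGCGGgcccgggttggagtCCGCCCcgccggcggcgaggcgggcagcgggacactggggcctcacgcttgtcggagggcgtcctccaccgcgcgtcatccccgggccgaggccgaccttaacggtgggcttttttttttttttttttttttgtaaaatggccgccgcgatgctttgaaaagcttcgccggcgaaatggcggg

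The first stretch held TCCCCGCC 1 time, the GC box 3 times and CCAAT 2 times, and the second held the GC box 4 times. No match overlapped a match to another motif. Among 32851 RefSeq promoters of the same length, 5.38% held TCCCCGCC, 35.7% the GC box and 37.4% CCAAT. The letters of the heat shock core (7.86% of promoters) and of the cyclic AMP element (1.79%) were in neither stretch. These matches describe the sequence and say nothing of binding.

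Total counts ran from 27117934 to 56243016 a library. The sWAT thermoneutral libraries stood apart. Mitochondrially encoded genes took 0.181% to 0.307% of their counts, against 17.6% to 53.8% in the other 9 libraries. Their slope of log2 CPM (counts scaled to a common library size) against transcript GC content was 0.80 to 1.37 per 10 percentage points, against −0.74 to 0.24 elsewhere. A batch of these 3 libraries cannot be told apart from the temperature in sWAT, nor from the tissue at 30 °C. Among the others, BAT cold library 3, sWAT cold library 1 and BAT thermoneutral library 3 had the lowest slopes (−0.74, −0.47 and −0.42). The members differ in transcript composition. The longest Cirbp transcript is 53.7% GC, above 73.1% of genes, and the longest Rbm3 transcript is 41.5% GC, above 11.5% of genes. Each contrast was also fitted with a GC offset. It removes from every library the departure of its smooth trend with GC content from the mean trend of the libraries fitted.

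Ucp1, the uncoupling protein of brown fat, rose in cold by 3.56 ± 0.38 on the log2 scale in BAT (± SE, adjusted p = 0.00190, edgeR's quasi-likelihood test) and by 5.72 ± 0.98 in sWAT (0.00203). Dio2, which activates thyroid hormone, rose by 1.89 ± 0.42 in BAT (0.0241) and by 7.79 ± 0.52 in sWAT (0.000174). Elovl3, a fatty acid elongase, rose by 7.10 ± 0.36 in BAT (0.000143) and by 8.47 ± 0.81 in sWAT (0.000264). The 7 adipocyte markers, among them Adipoq and Plin1, summed to 9104 to 21265 CPM over all libraries, and none was at 0 in a group.

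In BAT both genes were lower in cold, and neither difference passed the threshold of adjusted p 0.05. The rise for which they are named is that of cooled cultured cells, whereas here mice were held at 4 °C. The sample labels give no tissue temperature. Cirbp was measured at 12.6, 11.4 and 6.09 CPM in BAT cold libraries 1, 2 and 3, against 19.5, 18.2 and 20.3 CPM in BAT thermoneutral libraries. The groups did not overlap, and cold library 3 was the lowest of the 6. Cirbp averaged 10.0 ± 3.47 CPM in cold and 19.3 ± 1.05 CPM at thermoneutrality (SD, n = 3 each). Its log2 fold change was −0.89 ± 0.32, with a 95% interval of −1.61 to −0.17 (adjusted p = 0.101).

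Rbm3 was measured at 37.2, 42.4 and 80.2 CPM in BAT cold libraries 1, 2 and 3, against 118, 101 and 239 CPM in BAT thermoneutral libraries. Again the groups did not overlap, and library 3 was the highest in both. Rbm3 averaged 53.3 ± 23.5 CPM in cold and 153 ± 75.4 CPM at thermoneutrality (SD, n = 3 each). The log2 fold change was −1.46 ± 0.43, with a 95% interval of −2.45 to −0.47 (adjusted p = 0.0626). Of all 14612 genes tested in BAT, 12.2% passed, 6.82% as higher and 5.34% as lower in cold, while 19.7% had all cold libraries below all thermoneutral ones.

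The library titles carry an experiment number. With it as a block, Rbm3 in BAT had −1.44 ± 0.21 (adjusted p = 0.0114) and Cirbp −0.95 ± 0.29 (0.0660). No source says what the libraries of an experiment share.

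Both genes passed in BAT with the GC offset, where 8.88% of genes were called lower. Cirbp then fell by 0.96 on the log2 scale (adjusted p = 0.0259, within 0.0203 to 0.211 over all alternatives). Rbm3 fell by 1.29 (adjusted p = 0.0230, within 0.000174 to 0.198). The libraries numbered 3 have the lowest GC slopes of their groups. Without cold library 3 alone, Rbm3 had −1.89 (adjusted p = 0.0285), and without both libraries numbered 3 it had −1.40 (0.000174) and Cirbp −0.59 (0.0233). The fit without both called 6509 of 14566 genes, 3244 of them lower, against 1777 of 14612 with all BAT libraries. Leaving out any other single BAT library, Rbm3 did not pass (adjusted p = 0.0959 to 0.198). Cirbp did not pass without any single BAT library (0.0953 to 0.211). Summed lymphocyte markers (11 genes, none at 0 in a group) were 3.16 to 4.75 CPM in BAT cold, against 6.27 to 9.97 CPM in BAT thermoneutral libraries, and Schwann cell markers (5 genes) were 45.6 to 48.9 CPM in BAT cold, against 56.6 to 69.3 CPM in BAT thermoneutral libraries. Macrophage markers overlapped. Of 10 lymphocyte markers tested in BAT, 1 was called lower and 0 higher, with log2 fold changes from −1.97 to 0.35. Of 5 Schwann cell markers 0 were called (−0.99 to −0.23), and of 9 macrophage markers 0. Among all single genes in BAT 5.34% were called lower, and 19.7% had all cold libraries below all thermoneutral ones. The part of these cells in the results was not tested. In bulk tissue, fewer cells of a type and less RNA per cell cannot be told apart.

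**Figure D1:**
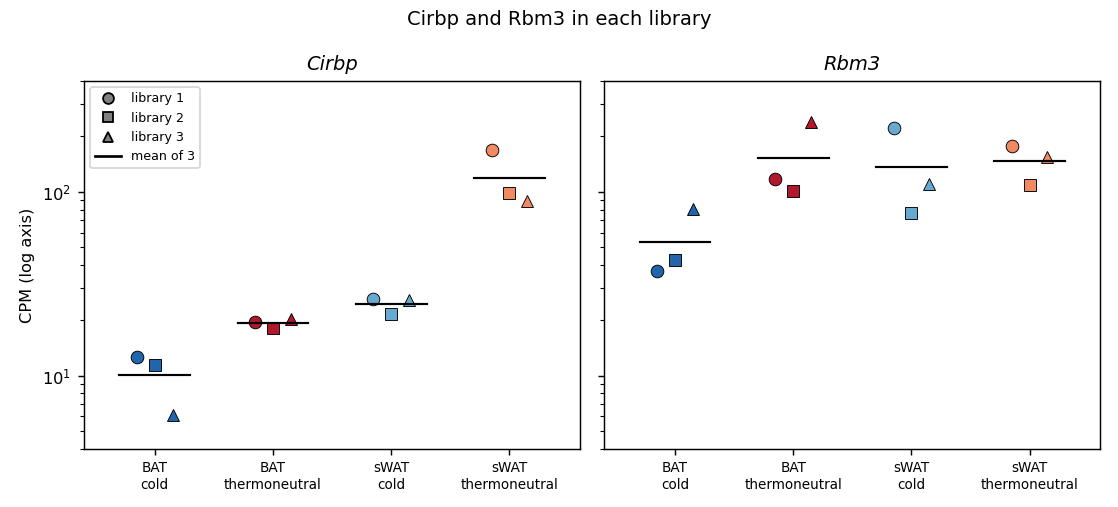
Level of Cirbp and Rbm3 in each of the 12 libraries, in CPM on a log axis; symbols give the library number, horizontal lines the mean of 3 libraries. Cirbp is lowest in BAT cold (6.09 to 12.6 CPM) and highest in sWAT thermoneutral libraries (89.6 to 169 CPM), while Rbm3 is lowest in BAT cold (37.2 to 80.2 CPM) and overlaps among the other 3 groups.

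In sWAT Cirbp fell and Rbm3 did not pass. Cirbp was measured at 26.2, 21.5 and 25.9 CPM in sWAT cold libraries 1, 2 and 3, against 169, 98.5 and 89.6 CPM in sWAT thermoneutral libraries. Every thermoneutral library was over 3 times as high as any cold one. The group means were 24.5 ± 2.63 CPM in cold and 119 ± 43.4 CPM at thermoneutrality (SD, n = 3 each). The log2 fold change was −2.28 ± 0.31 (adjusted p = 0.000835), a level 4.86 times lower in cold. Of 15731 genes tested in sWAT, 49.2% passed, 25.1% as higher and 24.1% as lower, and 30.5% had all cold libraries below all thermoneutral ones.

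Rbm3 was measured at 223, 77.0 and 110 CPM in sWAT cold libraries 1, 2 and 3, against 178, 109 and 155 CPM in sWAT thermoneutral libraries. The ranges overlapped, with cold library 1 the highest and cold library 2 the lowest of the 6. Its log2 fold change was −0.10 ± 0.42, with a 95% interval of −1.07 to 0.86 (adjusted p = 0.854), so the interval spans both directions. The value was positive when any of 3 libraries was left out: cold 2 (0.20), cold 3 (0.05) or thermoneutral 1 (0.06).

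The GC offset changed the picture for Rbm3 in sWAT. With it, over all 12 libraries, Rbm3 stood at 158, 74.4 and 91.5 CPM in cold libraries 1, 2 and 3. In thermoneutral libraries it stood at 430, 190 and 256 CPM. The groups then did not overlap, but the share of all genes without overlap under the offset was not counted. Its log2 fold change was −1.43 (adjusted p = 0.0221, within 0.0113 to 0.947 over all alternatives), where 20.9% of genes were called lower. Cirbp had −1.83 with the offset (adjusted p = 0.00186). An offset from the median GC content of the coding transcripts, in place of the longest transcript, gave −1.35 for Rbm3 (adjusted p = 0.0300) and −1.67 for Cirbp (0.00327). In sWAT the GC slope, the mitochondrial share and the temperature moved together and cannot be told apart.

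Markers of other cell types moved with the same contrast. The 11 lymphocyte markers summed to 190 to 528 CPM in sWAT cold and 821 to 1039 CPM in sWAT thermoneutral libraries. The 9 macrophage markers summed to 284 to 421 CPM in cold and 968 to 1542 CPM at thermoneutrality, and the 6 progenitor and fibroblast markers to 766 to 1128 CPM in cold and 2537 to 4421 CPM at thermoneutrality. The 5 Schwann cell markers summed to 75.7 to 87.4 CPM in cold and 90.9 to 130 CPM at thermoneutrality. The 10 skeletal muscle markers summed to 8264 to 21806 CPM in cold and 107 to 4586 CPM at thermoneutrality, and the 6 endothelial markers to 418 to 538 CPM in cold and 196 to 334 CPM at thermoneutrality. Single members did not all follow the sums. Lymphocyte markers had 7 of 11 called lower and 0 higher, and macrophage markers 6 of 9 lower and 1 higher. Progenitor and fibroblast markers had 3 of 6 lower and 0 higher, and Schwann cell markers 3 of 5 lower and 1 higher. Skeletal muscle markers had 8 of 10 higher and endothelial markers 4 of 6, with 0 lower in both. Of all genes 25.1% were higher and 24.1% lower. No marker of these lists was at 0 in a group, and their part in the results for Cirbp and Rbm3 was not tested.

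The response of Cirbp differed between the tissues in the test of the difference itself. Over all 12 libraries the BAT response minus the sWAT response was 1.33 ± 0.43 on the log2 scale (adjusted p = 0.0382), the BAT log2 fold change being the nearer to zero. Of 16365 genes tested for this difference, 25.1% passed and 7.85% passed in the positive direction. The call was lost with the GC offset, where 20.3% of genes passed and the difference was 0.71 (adjusted p = 0.169, within 0.000804 to 0.288 over all alternatives). It was also lost without any of 7 libraries taken singly: BAT cold 1 or 2, BAT thermoneutral 2 or 3, sWAT cold 2 or 3, and sWAT thermoneutral 1, with adjusted p from 0.0541 to 0.0971. For Rbm3 the difference was −1.41 ± 0.63 (adjusted p = 0.116), and −0.01 with the GC offset (0.997).

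**Figure D2:**
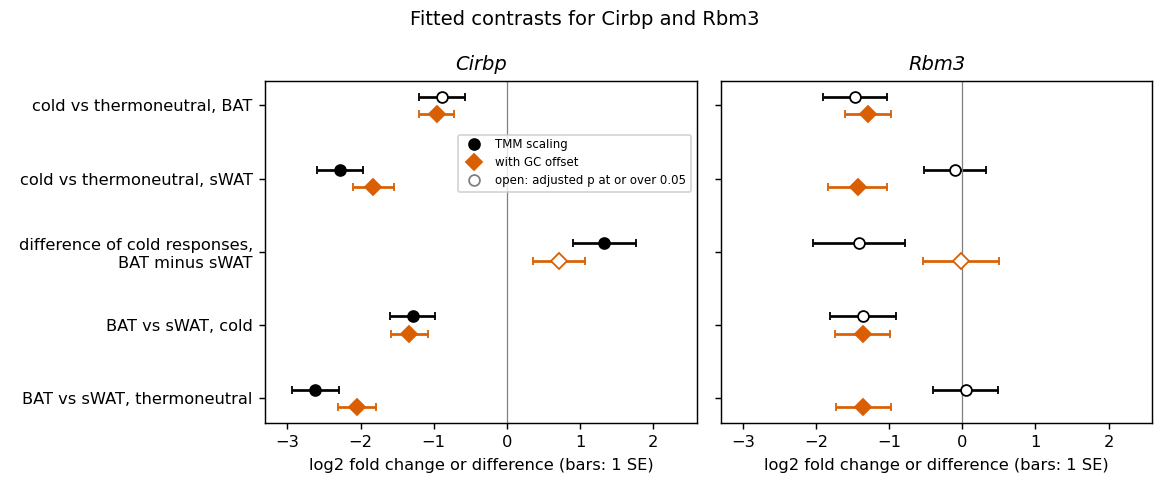
Log2 fold changes, or the difference of log2 fold changes in the third line, for Cirbp and Rbm3 in 5 contrasts, with bars of 1 SE; black circles are the fit with TMM scaling, orange diamonds the fit with the GC offset, and open symbols have an adjusted p of at least 0.05. With the GC offset both genes are at −0.96 to −1.83 in cold against thermoneutral tissue.

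Between the tissues, Cirbp was lower in BAT than in sWAT at both temperatures. In cold its log2 fold change was −1.29 ± 0.31 (adjusted p = 0.0143), a level 2.44 times lower in BAT. Of 16365 genes, 12.3% passed in cold and 11.1% were lower in BAT. Leaving out BAT cold 2 (adjusted p = 0.0675), BAT cold 3 (−0.88, 0.0843) or sWAT cold 1 (0.101) ended that call, within 0.00270 to 0.101 over all alternatives. At thermoneutrality the log2 fold change of Cirbp was −2.62 ± 0.32 (adjusted p = 2.48e-05), 6.15 times lower in BAT, where 58.7% of genes passed and 28.8% were lower in BAT.

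Rbm3 had a log2 fold change of −1.36 ± 0.45 in cold BAT against cold sWAT (adjusted p = 0.0691), and 0.05 ± 0.44 at thermoneutrality (0.933). With the experiment number as a block it had −1.34 in cold (adjusted p = 0.0485). Rbm3 was lower in BAT in both contrasts under the GC offset, with log2 fold changes of −1.36 in cold (adjusted p = 0.0244, where 13.7% of genes were lower in BAT) and −1.35 at thermoneutrality (0.00742, where 28.8% were). The thermoneutral value was also negative without BAT thermoneutral 3 (−0.42) or sWAT thermoneutral 2 (−0.13). Lymphocyte markers summed to 3.16 to 9.97 CPM in BAT and 190 to 1039 CPM in sWAT, macrophage markers to 102 to 178 CPM in BAT and 284 to 1542 CPM in sWAT, and progenitor and fibroblast markers to 336 to 580 CPM in BAT and 766 to 4421 CPM in sWAT. Endothelial markers were higher in BAT (605 to 1131 CPM) than in sWAT (196 to 538 CPM). All 11 lymphocyte markers were called lower in BAT at both temperatures. Of 9 macrophage markers 6 were lower in cold and 8 at thermoneutrality, and of 6 progenitor and fibroblast markers 3 and 5. Of 6 endothelial markers 3 were higher in cold and 5 at thermoneutrality, and of 10 skeletal muscle markers 0 and 8. Among all genes 12.3% passed in cold and 58.7% at thermoneutrality. The part of these cells here was not tested.

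From low to high, the order of Cirbp levels was BAT cold, BAT thermoneutral, sWAT cold and sWAT thermoneutral. The ranges of neighbouring groups did not overlap, although BAT thermoneutral (18.2 to 20.3 CPM) and sWAT cold (21.5 to 26.2 CPM) lay close. All cold libraries lay below all thermoneutral ones for 19.7% of genes in BAT and 30.5% in sWAT. Such a share was not counted for BAT thermoneutral against sWAT cold, nor for any groups under the GC offset. After the GC offset the ranges of BAT thermoneutral (20.7 to 24.3 CPM) and sWAT cold libraries (20.7 to 29.9 CPM) overlapped. For Rbm3 the lowest group was BAT cold, and the means of sWAT cold (137 ± 76.5 CPM), sWAT thermoneutral (147 ± 35.1 CPM) and BAT thermoneutral libraries (153 ± 75.4 CPM) did not differ beyond their spread (SD, n = 3 each). That ended under the GC offset, where sWAT thermoneutral libraries (190 to 430 CPM) lay above sWAT cold (74.4 to 158 CPM) and BAT thermoneutral libraries (78.5 to 168 CPM). Among the 16365 genes tested over all libraries, Cirbp stood above 45.4% to 55.7% in BAT cold, 61.6% to 65.3% in BAT thermoneutral, 64.9% to 70.3% in sWAT cold and 92.4% to 96.0% in sWAT thermoneutral libraries. Rbm3 stood above 76.1% to 88.2% in BAT cold libraries and above 88.7% to 97.7% in the other groups.

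Levels of the genes were compared with each other per kilobase of exon sequence, with 2604 nt for Cirbp and 4698 nt for Rbm3. Rbm3 was at 11.3 ± 4.995 CPM per kilobase in BAT cold, against 3.86 ± 1.33 for Cirbp. In BAT thermoneutral libraries Rbm3 was at 32.5 ± 16.04 and Cirbp at 7.43 ± 0.40, and in sWAT cold libraries Rbm3 was at 29.1 ± 16.3 and Cirbp at 9.42 ± 1.01. In sWAT thermoneutral libraries the order was the other way, with Rbm3 at 31.4 ± 7.48 and Cirbp at 45.7 ± 16.7 CPM per kilobase (SD, n = 3 each). Under the GC offset Rbm3 was the higher in all 4 groups, and in sWAT thermoneutral libraries it was at 62.1 ± 26.4 and Cirbp at 35.1 ± 9.64 CPM per kilobase. These orders of group means were not tested.

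The ratio of Rbm3 to Cirbp counts within a library needs no scaling between libraries. It was 2.96, 3.703 and 13.2 in BAT cold libraries 1, 2 and 3, against 6.04, 5.55 and 11.8 in BAT thermoneutral libraries. In sWAT it was 8.51, 3.59 and 4.24 in cold libraries 1, 2 and 3, against 1.06, 1.11 and 1.73 in thermoneutral libraries. The 3 sWAT thermoneutral libraries had the lowest ratios of the 12, and the highest ratio of each other group was in BAT cold library 3, BAT thermoneutral library 3 and sWAT cold library 1.

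Cold minus thermoneutral, the log2 ratio differed by −0.48 in BAT and by 2.00 in sWAT, a mean of 0.76 (exact permutation within tissue, two-sided, p = 0.2). BAT minus sWAT it differed by 0.05 in cold and by 2.54 at thermoneutrality, a mean of 1.29 (exact permutation within temperature, two-sided, p = 0.05). The smallest p these tests allow is 0.005, and within 1 tissue it would be 0.1. With the GC offset the mean differences were 0.05 (p = 0.865, exact permutation) and 0.36 (p = 0.195, exact permutation). After that offset the 4 group means of the log2 ratio were 2.03 in BAT cold, 2.30 in BAT thermoneutral, 1.99 in sWAT cold and 1.63 in sWAT thermoneutral libraries. The sWAT thermoneutral range (1.34 to 1.84) then overlapped both cold groups and lay just below BAT thermoneutral libraries (1.92 to 2.79).

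**Figure D3:**
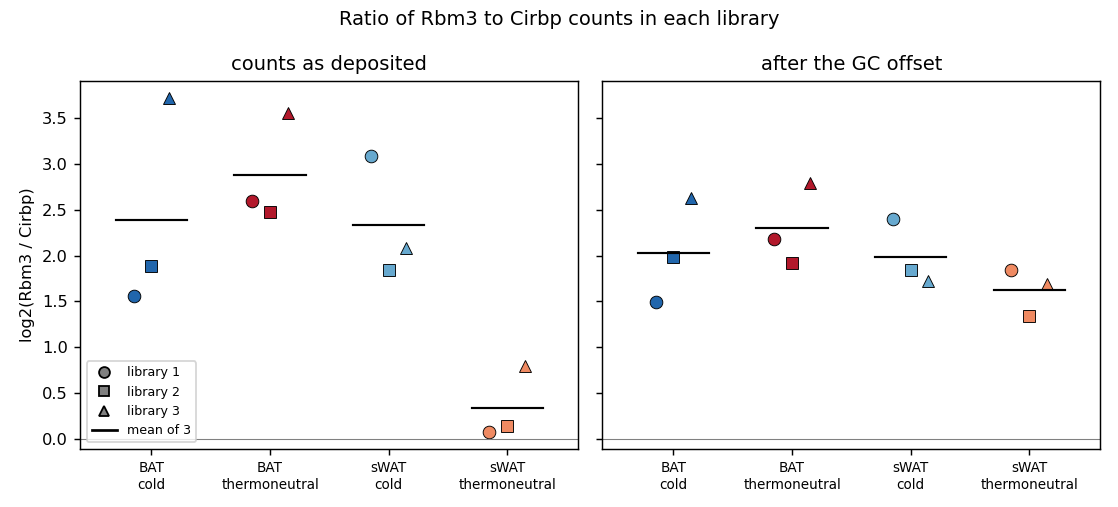
Log2 ratio of Rbm3 to Cirbp counts in each library, from the counts as deposited (left) and after the GC offset (right), with lines at the mean of 3 libraries. The group means run from 0.34 in sWAT thermoneutral to 2.88 in BAT thermoneutral libraries on the left, and from 1.63 to 2.30 on the right.

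In 3 of the 4 groups the library with the lowest GC slope had the most Rbm3. BAT cold library 3 (slope −0.74) had 80.2 CPM of Rbm3, BAT thermoneutral library 3 (−0.42) 239 CPM and sWAT cold library 1 (−0.47) 223 CPM. Cirbp was at its lowest of all in BAT cold library 3, but it was the highest of its group in the other pair. In sWAT thermoneutral libraries it was the one with the highest slope, library 1 (slope 1.37), that had the most Rbm3, at 178 CPM. How many other genes do the same was not counted, and a link of Rbm3 to the slope was not tested. Marker sums also set sWAT cold library 1 apart from cold libraries 2 and 3. Lymphocyte markers were at 528 CPM, against 226 and 190 CPM, and skeletal muscle markers at 8264 CPM, against 21806 and 21686 CPM. Without BAT cold 3, BAT thermoneutral 3 and sWAT cold 1 the cold contrast of Rbm3 between BAT and sWAT was −1.19 (adjusted p = 0.0166) and that of Cirbp −0.94 (0.0651).

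**Figure D4:**
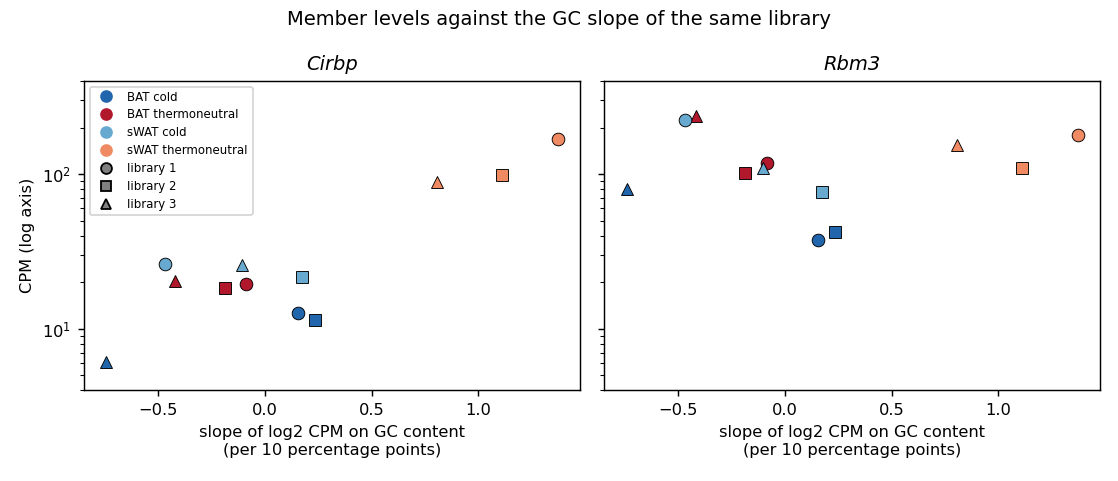
Level of Cirbp and Rbm3 (CPM, log axis) against the GC slope of the same library (log2 CPM per 10 percentage points), with colours for groups and symbols for library numbers. The sWAT thermoneutral libraries lie alone at slopes of 0.80 to 1.37, with Cirbp at 89.6 to 169 CPM and Rbm3 at 109 to 178 CPM.

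Likeness of pattern was measured as the root mean square difference of log2 CPM over the 12 libraries, each gene centred on its mean, among 8467 genes whose log2 CPM averaged 3 or more. Rbm3 was the 2031st nearest gene to Cirbp, at 1.15, and Cirbp was the 4915th nearest to Rbm3. The genes nearest to Cirbp were the class I histocompatibility gene H2-K1 (0.25), the NF-κB subunit gene Nfkb2 (0.32), H2-Q4 (0.33), Itm2c (0.33) and Hebp1 (0.33). H2-K1 averaged 218 ± 99.8 CPM in BAT cold and 430 ± 114 CPM in BAT thermoneutral libraries, and 666 ± 70.5 CPM in sWAT cold and 2796 ± 757 CPM in sWAT thermoneutral libraries, the same order as Cirbp. It was picked for its likeness to Cirbp in these same libraries, so the shared order is no separate result.

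Nearest to Rbm3 were Txndc16 (0.32), the tetraspanin gene Cd9 (0.35), B2m, which encodes the light chain of class I histocompatibility molecules (0.36), Cntrl (0.38) and Trim12a (0.38). B2m averaged 343 ± 101 CPM in BAT cold and 768 ± 256 CPM in BAT thermoneutral libraries, and 1131 ± 806 CPM in sWAT cold and 665 ± 176 CPM in sWAT thermoneutral libraries. Over the 6 BAT libraries alone, the nearest to Cirbp were the mitochondrial ribosomal gene Mrps28 (0.08), Snrpa1, a component of the U2 spliceosomal particle (0.12), and Trmt2a (0.13). The nearest to Rbm3 there were Ankrd12 (0.11), the chemokine gene Cxcl9 (0.11) and Pwwp2a (0.15). These values describe these libraries, and the libraries share their depth and composition across genes.

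Other genes with RBM names, most of which encode RNA-binding proteins with the same kind of motif, gave a background for both. Of 41 in the table, 35 were tested in BAT: 1 rose, 1 fell and 33 did not pass, where 12.2% of all genes passed. The median log2 fold change was −0.44, against −0.04 over all genes, and from 0 to 12 passed over the alternatives, up to 4 as higher and up to 8 as lower. The one that rose was Rbm47 (1.87 ± 0.36, adjusted p = 0.0149) and the one that fell was Rbm12b1 (−1.70 ± 0.38, adjusted p = 0.0241). Of 21 alternatives, 4 ended the call of Rbm12b1, each leaving out 1 of BAT cold 1 or 2 or BAT thermoneutral 1 or 2, and 2 that of Rbm47. With the GC offset 2 rose and 3 fell, where 12.5% of all genes rose and 8.88% fell. In sWAT 8 of 36 rose, 10 fell and 18 did not pass, where 49.2% of all genes passed. The median there was 0.05, against 0.00 over all genes. Under the GC offset 5 rose and 11 fell in sWAT, where 21.8% of all genes rose and 20.9% fell. Rbm25, a splicing regulator, rose by 2.05 ± 0.30 and had 0.22 to 2.21 over the alternatives. Rbm41 rose by 3.29 ± 0.49, Rbm6 by 1.48 ± 0.29 and Rbm20, which regulates splicing of titin in muscle, by 2.14 ± 0.49. The lowest of those that fell were Rbmxl2 (−3.39 ± 0.86, adjusted p = 0.0113) and Rbm42 (−1.51 ± 0.47, 0.0255), a pair named after their values were seen. With both members placed among them, Cirbp had the second lowest value of its list in sWAT.

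**Figure D5:**
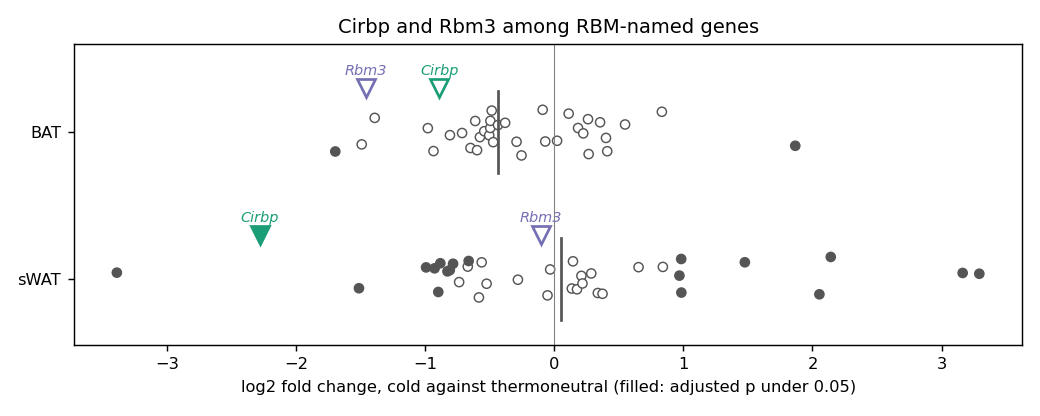
Log2 fold change in cold against thermoneutral tissue for RBM-named genes (grey circles, spread vertically at random), with their median as a vertical line and Cirbp and Rbm3 as triangles; filled symbols have an adjusted p under 0.05. In BAT the median is −0.44, with Rbm3 at −1.46 and Cirbp at −0.89; in sWAT the median is 0.05, with Cirbp at −2.28 and Rbm3 at −0.10.

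Genes of the cold shock domain family, an older fold shared with bacterial cold shock proteins, came next. Of 8, 6 were tested. In BAT Csdc2 rose by 1.39 ± 0.35 (adjusted p = 0.0357) and 5 did not pass, and Csdc2 lost its call under 8 of 20 alternatives. The list median was −0.18 in BAT, where 12.2% of all genes passed. In sWAT Ybx1 had 0.69 ± 0.30 (adjusted p = 0.0863) and Ybx3 −0.20 ± 0.36 (0.671), and neither passed.

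Among 8 reported regulators of either member, 7 were tested. Of all genes, 12.2% passed in BAT and 49.2% in sWAT. In BAT Ntrk2, the receptor through which cooling has been reported to raise RBM3 in mouse neurons, rose by 1.79 ± 0.38 (adjusted p = 0.0210), and 6 did not pass. It was at 384 ± 90.5 CPM in BAT cold and 115 ± 49.9 CPM in BAT thermoneutral libraries (SD, n = 3 each), and lost its call under 4 of 21 alternatives. Hnrnph1, whose product has been reported to favour productive splicing of RBM3 in human neurons, had −1.06 ± 0.39 in BAT (adjusted p = 0.111). In sWAT Ntrk2 rose by 1.02 ± 0.29, Creb1 by 1.53 ± 0.35 (−0.04 to 1.78 over the alternatives) and Sp1 by 1.23 ± 0.34, while the heat shock factor gene Hsf1 fell by 0.88 and the channel gene Trpv4 by 1.41, and 2 did not pass. With the GC offset 1 rose and 1 fell, where 21.8% of all genes rose and 20.9% fell. The list median was 0.10 in BAT and 0.57 in sWAT.

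Of 3 genes for import and modification of CIRBP, 0 passed in BAT in edgeR, in DESeq2 or under the other alternatives, and 0 had an unadjusted p under 0.05. In sWAT the import receptor gene Tnpo1 rose by 1.70 ± 0.32 and the kinase gene Gsk3b by 0.94 ± 0.24, while Prmt1, an arginine methyltransferase, had −0.79 ± 0.30 (adjusted p = 0.0568). With the GC offset 0 of the 3 passed. Among all genes 12.2% passed in BAT and 49.2% in sWAT. With the offset 21.8% were called higher and 20.9% lower in sWAT.

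Transcripts reported in human or rodent cells to be bound by CIRBP went in both directions. In BAT Rpa2, a subunit of the single-stranded DNA-binding complex, fell by 1.67 on the log2 scale (adjusted p = 0.0149), to 1.98 ± 0.46 CPM in cold against 6.52 ± 1.09 CPM at thermoneutrality, and 3 of 4 did not pass. The call of Rpa2 was lost under 4 of 21 alternatives, each leaving out 1 library. In sWAT Rpa2 fell by 2.08 (0.000553) and the thioredoxin gene Txn1 by 2.00 (0.00302). There Clock, a core clock activator, rose by 2.78 ± 0.29 (0.000348) and the checkpoint kinase gene Atr by 1.08 ± 0.38 (0.0422), with −0.36 to 1.29 over the alternatives. The list median was −0.86 in BAT and −0.46 in sWAT. The share of all genes that passed was 12.2% in BAT and 49.2% in sWAT.

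Of the transcripts reported as bound by RBM3, 3 of 4 were tested. In BAT 0 passed in edgeR, in DESeq2 or under the other alternatives, and 0 had an unadjusted p under 0.05, with Rtn3 at 0.56 ± 0.33, Yap1 at 0.41 ± 0.26 and Vegfa at 0.07 ± 0.32. In sWAT the reticulon gene Rtn3 rose by 1.75 ± 0.27 and the coactivator gene Yap1 by 1.02 ± 0.24, and Vegfa had 0.76 ± 0.30 (adjusted p = 0.0630). The call of Yap1 was lost under 2 of 20 alternatives, with 0.42 to 1.17 over all of them. Of the receptors of extracellular CIRBP, 2 of 3 were tested. In BAT Ly96 had 0.39 ± 0.66 and Tlr4 0.05 ± 0.46. In sWAT Ly96 rose by 4.30 ± 0.55 and Tlr4 by 1.19 ± 0.40, the second with −0.42 to 1.43 over the alternatives. Beside both lists, 12.2% of all genes passed in BAT and 49.2% in sWAT.

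Heat-inducible chaperone genes, which in cultured cells move opposite to Cirbp and Rbm3, included members on both sides. In BAT 1 of 12 rose, 2 fell and 9 did not pass, where 12.2% of all genes passed, with a median of 0.45. Under the GC offset 5 rose and 2 fell, where 12.5% of all genes rose and 8.88% fell. Over all alternatives 1 to 9 passed. Hspa4l rose by 2.05 ± 0.33 (adjusted p = 0.00860). The near-identical copies Hspa1a and Hspa1b, between which reads are uncertain, fell by 4.27 and 4.52 (0.0160 and 0.0204), and lost their calls under 3 and 4 of 21 alternatives. In sWAT 8 of 12 rose, where 25.1% of all genes rose, and 4 did not pass, with a median of 1.57. Under the GC offset 6 of 12 rose, where 21.8% of all genes rose. Hspd1, a mitochondrial chaperone, rose by 3.15 ± 0.34, Hspa4l by 3.22 ± 0.39, Chordc1 by 1.76 ± 0.29 (−0.23 to 1.92 over the alternatives) and Hsp90aa1 by 2.72 ± 0.46. Hspa1a was at 6.23 ± 4.76 CPM in BAT cold against 125 ± 80.3 CPM in BAT thermoneutral libraries, and at 4.78 ± 3.74 CPM in sWAT cold against 2.06 ± 0.56 CPM in sWAT thermoneutral libraries (SD, n = 3 each).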

How the data were processed

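The authors deposited raw counts per gene symbol, whole numbers without normalization, for 12 libraries made from 1000 ng of total RNA with paired reads of 100 nt. Per the submitters' processing notes, STAR and DESeq2 were used with build mm10; versions, counting tool, strand setting and filters: not given in the sources used here. Merged heads the column names of BAT cold 1 and of sWAT cold 2, with no meaning stated. No columns were identical.

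Contrasts were fitted with edgeR 4.0.16 in R 4.3.3 (filterByExpr, TMM, glmQLFit with robust=TRUE, glmQLFTest), per tissue for cold against thermoneutral and over 12 libraries otherwise, with Benjamini-Hochberg adjustment across the tested genes (threshold 0.05); 5 contrasts for 2 genes gave 10 tests. SE is the log2 fold change divided by the square root of F. Printed CPM use TMM over 12 libraries. Values of CPM and of the ratio after the GC offset use trends over the same 12, while fits within a tissue use only its own libraries. The fit was tested on simulated data. GC content came from GENCODE M21, matched for 96% of genes, with a lowess span of 0.3.

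Alternatives were RLE and upper quartile scaling, other totals, other filters, robust=FALSE, DESeq2 1.42.0, limma-voom (limma 3.58.1), the GC offset, a replicate block and leaving out libraries. The members and lists were chosen with earlier results of these data known. Named genes are the members, the nearest by pattern, all tested members of short lists, up to 4 called of longer ones, overlapping genes and 3 label checks. Rbm3os, which matched the RBM name rule, was left out of that list. The count of the cold shock domain list in sWAT is not reported here.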

Additional observations from a re-analysis of the deposited data

Results flagged for a closer look

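The cold response of Cirbp differed between BAT and sWAT by 1.33 ± 0.43 on the log2 scale (adjusted p = 0.0382, edgeR's quasi-likelihood test of the interaction), with log2 fold changes of −0.89 in BAT and −2.28 in sWAT. All cold libraries lay below all thermoneutral ones for Cirbp in both tissues, as they did for 19.7% of genes in BAT and 30.5% in sWAT. The difference did not pass with the GC offset (0.71, adjusted p = 0.169).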

How the results depend on the processing

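Cirbp kept its direction under all alternatives in the 5 contrasts, and its calls in sWAT (−2.44 to −1.67) and between tissues at thermoneutrality (−2.80 to −1.90) held under all of them. Causes of the changes below were not tested. Rbm3 in BAT passed with upper quartile scaling (−1.62), no filter (−1.46), DESeq2 (−1.46), the 12-library fit (−1.52), the GC offset (−1.29), the GC offset from coding transcripts (−1.27) and without both libraries numbered 3 (−1.40), with −1.89 to −1.001 leaving out 1 library. Cirbp in BAT passed with the GC offset (−0.96), that from coding transcripts (−0.996) and without both libraries numbered 3 (−0.59), with −1.07 to −0.63 leaving out 1 library. Rbm3 in sWAT passed with the GC offset (−1.43) and that from coding transcripts (−1.35), with −0.67 to 0.20 leaving out 1 library. The Cirbp difference between tissues was not called with limma-voom (1.21), the GC offset (0.71) or that from coding transcripts (0.57), with 0.997 to 1.76 leaving out 1 library. The Rbm3 difference passed with limma-voom and sample weights (−1.001), with −1.69 to −0.62 leaving out 1 library.

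Between tissues in cold, Rbm3 passed with DESeq2 (−1.27), the GC offset (−1.36), that from coding transcripts (−1.32), without both BAT libraries numbered 3 (−1.78) and without these and sWAT cold 1 (−1.19), with −1.66 to −0.59 leaving out 1 library. Without those 3 libraries Cirbp was not called (−0.94), with −1.31 to −0.88 leaving out 1. At thermoneutrality Rbm3 turned negative with RLE scaling (−0.0193), totals without mitochondrial and ribosomal protein genes (−0.0202), DESeq2 (−0.0193), limma-voom (−0.0361), the GC offset (−1.35), that from coding transcripts (−1.28), without both BAT libraries numbered 3 (−0.417) and without these and sWAT cold 1 (−0.387), with −0.42 to 0.25 leaving out 1. The ratio difference between tissues was 0.96 to 1.501 leaving out 1 library, and passed without BAT cold 1 (exact permutation p = 0.03), BAT cold 2 or sWAT cold 1 (exact permutation p = 0.045 each).

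Whether experiment numbers pair the libraries is not settled by the labels. Correlations of same-numbered deviations were 0.31, 0.07 and 0.29 in BAT, each above the highest with another number (0.24, 0.06 and −0.19), and −0.23, 0.19 and −0.31 in sWAT, each below it. The replicate block moved the BAT count of calls to 2799, against 1777 without it, and gave Rbm3 −1.44 in BAT and −1.34 between tissues in cold, both called. The replicate block with the GC offset gave Cirbp −0.98 and Rbm3 −1.22 in BAT, Rbm3 −1.42 in sWAT, differences of 0.68 for Cirbp and 0.046 for Rbm3, and Rbm3 −1.28 in cold and −1.33 at thermoneutrality between tissues. In sWAT 4 listed genes turned negative with the GC offset and with the replicate block and GC offset: Creb1 (−0.00894 and −0.0391), Atr (−0.206 and −0.197), Tlr4 (−0.318 and −0.334) and Chordc1 (−0.209 and −0.230). Coding-transcript GC content gave −0.356 for Atr and −0.421 for Tlr4.

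Counts of called genes ran from 451 (without BAT cold 2) to 6509 (without both libraries numbered 3) in BAT, 5603 to 8719 in sWAT and 2419 to 8613 for the difference, against 1777, 7734 and 4108. DESeq2 called 2806 in BAT and the GC offset 3118. Upper quartile scaling shifted the BAT median of all genes to −0.20, against −0.04, and the share of calls that were higher to 41.5%, against 56.0%. That share for the difference was 41.6% with RLE scaling and 44.1% without the 10 highest genes, against 31.3%, and between tissues in cold 25.8% without the 10 highest genes, against 9.68%. Their medians shifted by over 0.1, to 0.03 and 0.06 for the difference, against −0.12, and to 0.13 in cold, against −0.03. Alternatives with both BAT libraries numbered 3 and sWAT cold 1 left out, and with coding-transcript GC content, were chosen after seeing the data.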
